A study of Mus musculus with 2 samples.

Results

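The cytosolic ribosomal protein genes were examined for binding of CTCF at their promoters in mouse embryonic lung. They were taken from the GENCODE M21 annotation as the protein-coding genes whose symbol is Rpl or Rps followed by a digit, together with Rplp0, Rplp1, Rplp2, Rpsa and Fau. The 10 Rps6k kinase genes, 6 genes with pseudogene names and Rps19bp1, which codes for a binding partner of RPS19, were left out. This gave 86 genes of 21884 protein-coding genes with a unique symbol, 52 for proteins of the large subunit and 34 for proteins of the small subunit. Of these, 78 are the canonical genes and 8 are paralogues (Rpl3l, Rpl7l1, Rpl10l, Rpl22l1, Rpl36al, Rpl39l, Rps27l and Rps27rt).

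The data are 2 CTCF chromatin immunoprecipitation sequencing (ChIP-seq) samples from lungs of B6NCrl mouse embryos at day 14.5. Lungs of both sexes, collected in several dissections, were pooled and pulverised, and no genetic change or treatment is given. Both samples, called replicate 1 and replicate 2 here, are labelled as biological replicates, but their biosample and donor entries are identical; differences between them may therefore reflect technical variation alone. Whole lung holds epithelial, mesenchymal, endothelial and blood cells, and peaks of a factor that binds in nearly all cell types give no marker check of the tissue. The files are peak lists on mm10 and hold no read totals, so sequencing depth is unknown. The list called optimal, made by the irreproducible discovery rate (IDR) procedure, which keeps peaks that rank alike in replicates, has 54943 sites on chromosomes 1 to 19 and X, and every value below comes from it unless a replicate is named. Each site has 1 summit and 1 signal value, which is the peak caller's own and was not rescaled here.

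Ribosomal proteins join the ribosomal RNAs to form the large and small subunits of the ribosome, and dividing tissue such as the growing lung makes them in large amounts. Their genes lie scattered over the genome, are transcribed in nearly every cell, usually start at a run of pyrimidines, and often carry small nucleolar RNAs in their introns. CTCF is a zinc finger protein that binds a long DNA motif in one orientation and halts cohesin there, so that pairs of facing sites anchor chromatin loops; besides distant sites it also occupies many promoters.

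The motif was learned from the sequences under 3000 strong summits on odd-numbered autosomes more than 1 kb from any start, none of them a ribosomal protein promoter site, and came out as NCCACCAGGGGGCACNNNNG, read on both strands. A match is a 20-base window centred within 50 bp of the summit whose score is reached by 1.00% of windows moved by 1 kb. On even-numbered autosomes and X together, 56.2% of 25415 sites had one. The matches below are a choice of those at promoters with strong sites, with the one of the X-linked Rps4x, shown because they are the sequences under the summits described here. Each is 40 bases of mm10, given 5′ to 3′ on the strand that carries the motif, with the 20 motif bases in capitals.
Rpl26, chr11:68901454-68901493, + strand: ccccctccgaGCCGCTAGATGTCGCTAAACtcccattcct
Rplp0, chr5:115559279-115559318, + strand: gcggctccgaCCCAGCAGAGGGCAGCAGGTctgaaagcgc
Rpl5, chr5:107900454-107900493, + strand: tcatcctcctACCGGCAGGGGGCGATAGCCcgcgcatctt
Rps3a1, chr3:86142717-86142756, - strand: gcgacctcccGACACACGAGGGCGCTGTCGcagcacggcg
Rpl36, chr17:56613317-56613356, + strand: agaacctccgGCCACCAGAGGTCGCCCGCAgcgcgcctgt
Rpl38, chr11:114668447-114668486, + strand: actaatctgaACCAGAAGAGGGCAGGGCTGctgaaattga
Rps4x, chrX:102189419-102189458, - strand: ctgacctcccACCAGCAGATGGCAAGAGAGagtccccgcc
Of the 15 consensus positions, the Rpl26 match holds 8, the Rpl5 and Rps3a1 matches hold 10, and those of Rplp0, Rpl36, Rpl38 and Rps4x hold 11.

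Some of the strongest promoter sites had no match under this rule. The 100 bases upstream of the transcription start site (TSS) are given below for the 2 strongest of these, on the gene's own strand, with the 5 bases at the summit in capitals. No match says only that no window near the summit reached the score.
Rpl11, chr4:136053429-136053528, - strand: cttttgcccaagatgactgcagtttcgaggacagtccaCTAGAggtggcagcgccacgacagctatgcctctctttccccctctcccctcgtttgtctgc
Rpl10a, chr17:28328371-28328470, + strand: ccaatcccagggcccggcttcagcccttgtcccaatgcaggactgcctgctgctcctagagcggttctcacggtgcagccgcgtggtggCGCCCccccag
The best window scored 2.12 bits at Rpl11 and 5.15 bits at Rpl10a, against a threshold of 11.8 bits.

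A CTCF summit lay within 1 kb of the TSS, taken as the annotated 5′ end of the gene, in 39 of the 86 ribosomal protein genes. That is 45.3% (95% Wilson interval 35.3 to 55.8, counting error only), against 5778 of 21798 other protein-coding genes, or 26.5% (25.9 to 27.1), and 26.6% of all protein-coding genes. Within 5 kb a summit was present at 59 ribosomal protein genes, or 68.6% (58.2 to 77.4), against 44.7% of other genes and 44.8% of all protein-coding genes. Both subunits took part to a like extent: 24 of 52 large-subunit genes (46.2%, 33.3 to 59.5) and 15 of 34 small-subunit genes (44.1%, 28.9 to 60.5) had a promoter site. The genes with a site lie on 17 chromosomes, and no site was the strongest one of more than 1 ribosomal protein gene.

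Promoters of these genes had a slightly higher median GC content than those of other genes. Among other genes CTCF sites were more frequent at promoters richer in G and C, so the comparison was repeated at equal base composition. The median GC content of the 1 kb centred on the TSS was 56.6% for ribosomal protein genes (45.6 to 68.2) and 54.8% for other genes. When other genes were weighted to the GC content of the ribosomal protein genes in 20 bins, 32.6% of them had a site, which would be 28.1 of 86 genes. The difference was 12.7 percentage points, against 18.8 points without weighting. At 5 kb the weighted share of other genes was 53.8% and the difference 14.8 points. In both windows the weighted share of other genes lay below the Wilson interval of the ribosomal protein genes.

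The difference depended on what was held equal. Ribosomal protein genes also had more CpG dinucleotides for their base content, with a median observed-to-expected CpG ratio of 0.785 against 0.550 in other genes. Weighting by GC and CpG ratio together in 3 bins each put the share of other genes at 36.5% and the difference at 8.88 points. With 5 bins each, which was tried only once the data had been seen, the share was 37.5% and the difference 7.83 points. Counting every annotated transcript start of each gene gave 42 ribosomal protein genes (48.8%), against a weighted 41.1% of other genes, a difference of 7.71 points. Under these 3 settings, all at 1 kb, the share of other genes fell inside the Wilson interval of the ribosomal protein genes. At 86 genes that difference was within counting error. At 5 kb the shares weighted for GC and CpG ratio in 3 and 5 bins, 55.2% and 56.3%, lay below the interval (58.2 to 77.4). In the conservative IDR list they were 53.5% and 54.4% and lay inside it (53.4 to 73.3). The 3 genes that the additional starts brought in were Rps2, Rpl24 and Rpl18.

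When all genes were cut into 4 equal bands of promoter GC, the ribosomal protein genes exceeded other genes in the middle ranges. Between 47.3% and 54.7% GC, 10 of 23 (43.5%, Wilson interval 25.6 to 63.2) had a site, against 22.02% of other genes. Between 54.8% and 60.9% GC it was 24 of 47 (51.1%, 37.2 to 64.7), against 36.6%. In the richest band, from 61.0% to 80.8% GC, the share was lower, 4 of 13 (30.8%, 12.7 to 57.6), against 42.03%, which is within the interval. The poorest band held 3 ribosomal protein genes, 1 of them with a site (33.3%, 6.15 to 79.2), against 5.19% of other genes. All 3 lay at its upper end, between 45.4% and 47.2% GC, where 12.2% of other genes had a site. Within the family neither measure separated the genes with a site, with a median GC of 56.7% and a CpG ratio of 0.787, and those without, with 56.6% and 0.783; among other genes the same medians were 59.1% and 0.715 with a site, and 52.5% and 0.391 without.

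**Figure D1:**
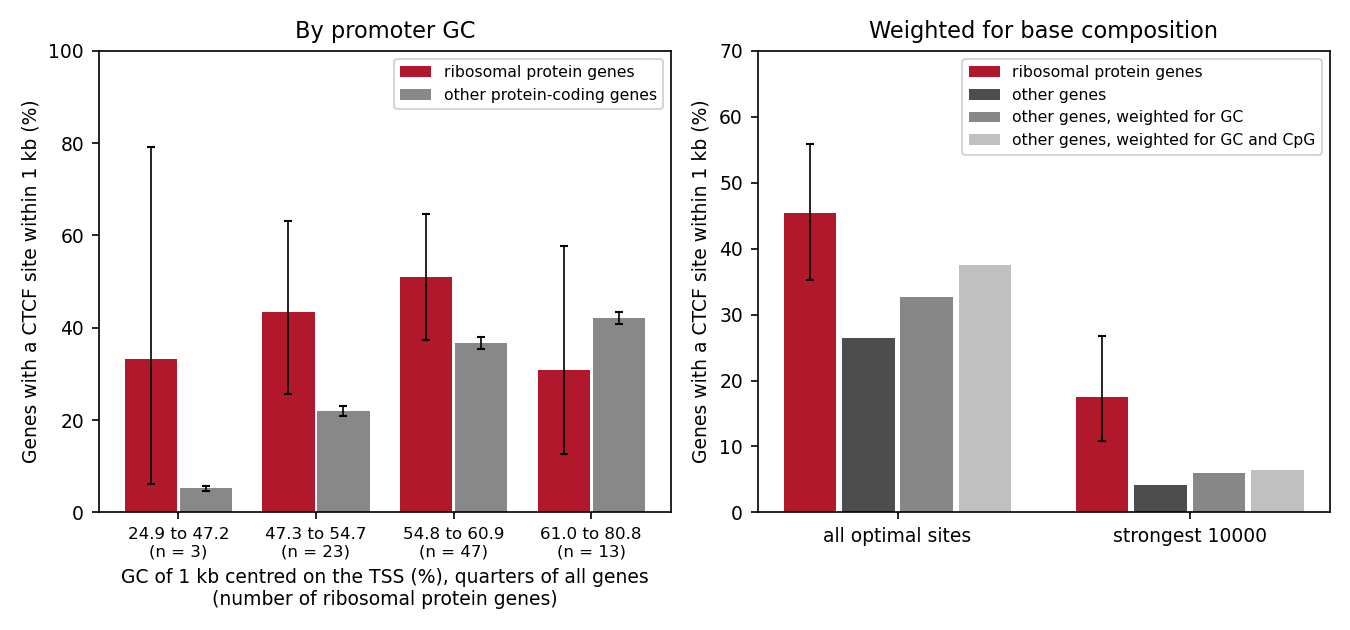
Left, share of ribosomal protein genes (red) and other protein-coding genes (grey) with a CTCF summit within 1 kb, in 4 equal bands of promoter GC content, with 95% Wilson intervals and the number of ribosomal protein genes under each pair. Right, the same shares for all optimal sites and for the strongest 10000, beside other genes as counted, weighted for GC, and weighted for GC and CpG ratio: with all sites the ribosomal protein genes reach 45.3% against 37.5% in the last of these, and with the strongest 10000 they reach 17.4% against 6.48%.

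The sites at ribosomal protein genes were strong. Their median signal was 122.8 (quartiles 57.9 and 266.4, range 9.61 to 386.2), against 55.4 at other genes with a site and 60.4 when those were weighted for promoter GC. As a percentile among all optimal sites the median was 69.1 (order-statistic 95% interval 53.6 to 88.0), against 46.3 for other genes. Of the 39 sites, 11 (28.2%) were in the top 10% of signal, against 8.74% of other genes' sites, 10.7% of them weighted for GC, and 8.87% over all protein-coding genes with a site. None was in the top 1%, where 61 sites of other genes (1.06%) lay. Among the strongest 10000 sites alone, 15 of 86 ribosomal protein genes (17.4%, 10.9 to 26.8) kept a promoter site, against 4.23% of other genes, 6.05% weighted for GC and 6.48% weighted for GC and CpG ratio. These weighted shares of strong sites lay below the Wilson interval of the ribosomal protein genes. The share at this cut was not computed for related gene groups, some of whose promoter sites were as strong. Examples are the ribosome biogenesis genes Rrp1 (497.8) and Nob1 (408.0), the proteasome gene Psmd6 (369.2) and the mitochondrial ribosomal protein gene Mrpl34 (350.2). Most sites of these groups were weaker.

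**Figure D2:**
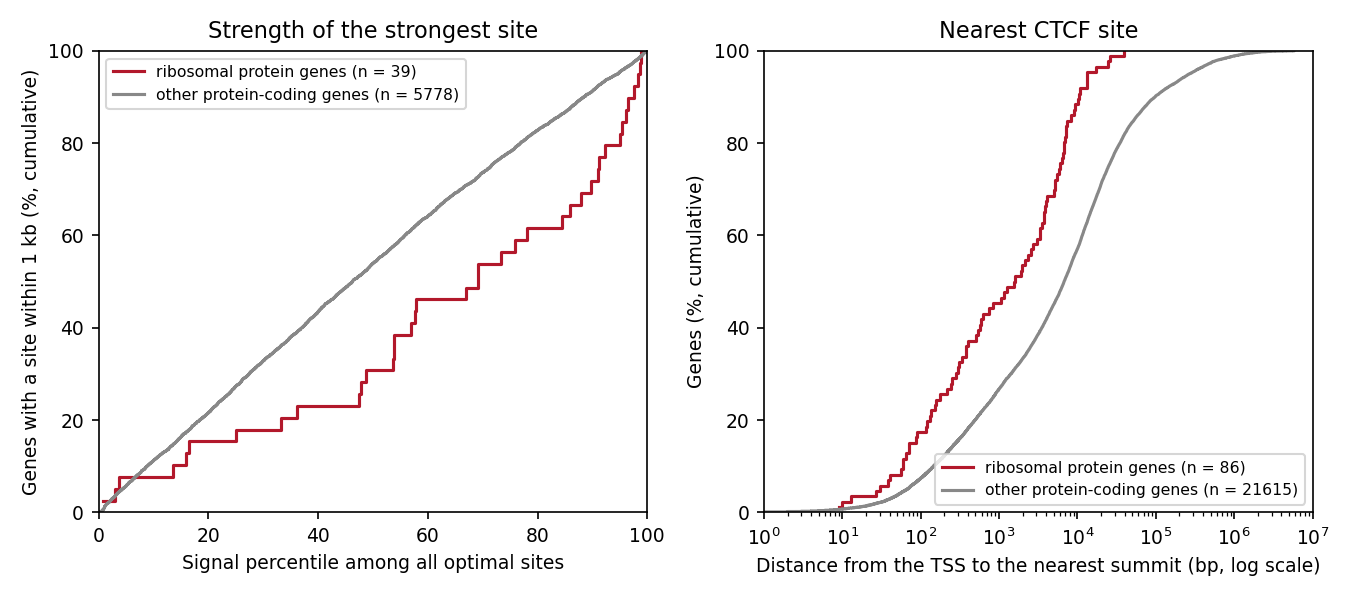
Left, cumulative share of genes with a promoter site by the percentile of their strongest site among all optimal sites, for 39 ribosomal protein genes (red, median 69.1) and 5778 other genes (grey, median 46.3). Right, cumulative share of genes by distance to the nearest summit on a log scale, for 86 ribosomal protein genes (median 1572.5 bp) and 21615 other genes on chromosomes with sites (median 6751 bp): the red curve lies left of the grey one over most of its length. Neither side is weighted for base composition.

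Among large-subunit genes the strongest site was at Rpl26, whose protein lies by the tunnel through which the nascent chain leaves. Its signal was 386.2, with 222.6 in replicate 1 and 162.6 in replicate 2, and it ranked 605th of all sites, at 116 bp upstream. Rplp0, the base of the stalk that recruits elongation factors, followed with 379.6, with 217.5 in replicate 1 and 163.7 in replicate 2, at 151 bp upstream. Of the other stalk genes, Rplp1 and Rplp2 had no summit within 1 kb; their strongest sites within 5 kb lay 3848 bp downstream (62.3) and 3988 bp upstream (102.5).

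Both proteins of the 5S ribonucleoprotein particle, which besides its place in the ribosome can bind MDM2 and stabilise p53, had a strong promoter site. Rpl5 had a signal of 365.0, with 191.0 in replicate 1 and 172.8 in replicate 2, at 13 bp upstream. Rpl11 had 321.8, with 164.4 in replicate 1 and 159.2 in replicate 2, at 60 bp upstream. The 2 genes lie on different chromosomes, 5 and 4, and their sites differed in the motif, which was matched at Rpl5 and not at Rpl11.

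Other large-subunit genes with a site in the top 10% included Rpl36, Rpl10a and Rpl38. Rpl36 had a signal of 312.0 (175.7 in replicate 1, 137.9 in replicate 2) with its summit 71 bp upstream. Rpl10a, the protein of the mobile L1 stalk beside the exit site for transfer RNA, had 307.5 (171.0 and 138.6 in replicates 1 and 2) at 9 bp upstream.

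Rpl38, which in mouse embryos is needed for translation of a set of Hox mRNAs, was the only ribosomal protein gene with 3 summits within 1 kb. The strongest, 56 bp upstream, had a signal of 267.9 (143.1 in replicate 1, 124.6 in replicate 2). The others were 621 bp downstream (140.1) and 457 bp upstream (48.2). Rpl7, Rpl22 and Rpl23a were among those with 2 summits; in all, 5 of 86 ribosomal protein genes (5.81%) had 2 or more, against 3.67% of other genes.

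Of the small-subunit genes, 3 reached the top 10%, Rps3a1 and Rps24 among them. Rps3a1, whose protein sits by the messenger RNA exit, had a signal of 327.9 (183.1 in replicate 1, 145.5 in replicate 2), 38 bp upstream; its summit is also 17 bp from the start of the divergent Gm37933, so the 2 starts cannot be told apart by position. Rps24 had 264.9 (146.6 in replicate 1, 120.0 in replicate 2), and its summit lay 10 bp inside the first exon, 67 bp being the distance between its start and that of the divergent Polr3a, a subunit of RNA polymerase III. The median signal was 81.0 over the 15 small-subunit sites and 133.7 over the 24 large-subunit sites, with ranges that overlapped widely (9.61 to 327.9, and 15.9 to 386.2).

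Sites just below the top 10% and lower covered further roles. Rpl27 (253.3) and Rpl37 (238.5) of the large subunit were at 156 and 297 bp upstream. Rpl13a, which also silences inflammatory messenger RNAs in interferon-treated human monocytes, had a signal of 222.7 at 340 bp upstream. Below these came Rps29 (170.2), Rps15 (156.7), the paralogue Rpl7l1 (143.9), Rpl3 (123.5), whose protein reaches towards the catalytic centre, Rps4x (122.8) and Rpl36a (114.2). All of them were listed in both replicates, with signals from 73.8 to 137.6 in replicate 1 and from 44.7 to 105.3 in replicate 2 for those from Rpl37 to Rps4x, and 55.5 and 60.4 at Rpl36a.

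Weaker sites included those at Rpl32 (81.2), Rps19 (81.0), Rpl22 (78.7), Rpl10 (70.9), Rpl35 (70.9), Rps26 (70.2), Rps20 (59.8), Rpl34 (58.1), Rpl7 (41.1), Rps18 (38.1) and Rpl4 (30.5). The lowest 6 values were those of Rps27a (24.7), which codes for a ubiquitin fusion, Rps14 (24.3), Rpl23a (22.8), Rpl22l1 (16.5), Rpl8 (15.9) and Rps12 (9.61). None of these 6 had a motif match, and 5 of them, all but Rpl23a, were missing from the conservative IDR list. That list in turn had a summit within 1 kb at Rpl39, Rplp2 and Rps15a, which have none in the optimal list. On the X chromosome, which holds 4 ribosomal protein genes, Rps4x, Rpl36a and Rpl10, a protein added late to the large subunit, had a site, and Rpl39 had its nearest summit 10668 bp downstream.

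Genes whose human counterparts are mutated in Diamond-Blackfan anaemia, an inherited failure of red cell production, had a promoter site in 10 of 19 cases (52.6%, 31.7 to 72.7). They included Rpl26, Rpl5, Rpl11, Rps24 and Rpl27 among the 12 strongest sites, and Rps29, Rps19, Rpl35 and Rps26. Those with none were Rps7, Rps10, Rps15a, Rps27, Rps28, Rpl15, Rpl18, Rpl31 and Rpl35a. This share was inside the interval for all ribosomal protein genes. Of the 8 paralogues, Rpl7l1 and Rpl22l1 had a site; Rpl10l and Rpl39l, which in mice are expressed mainly in testis, had none, and their nearest summits were 24432 and 38780 bp away.

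**Figure D3:**
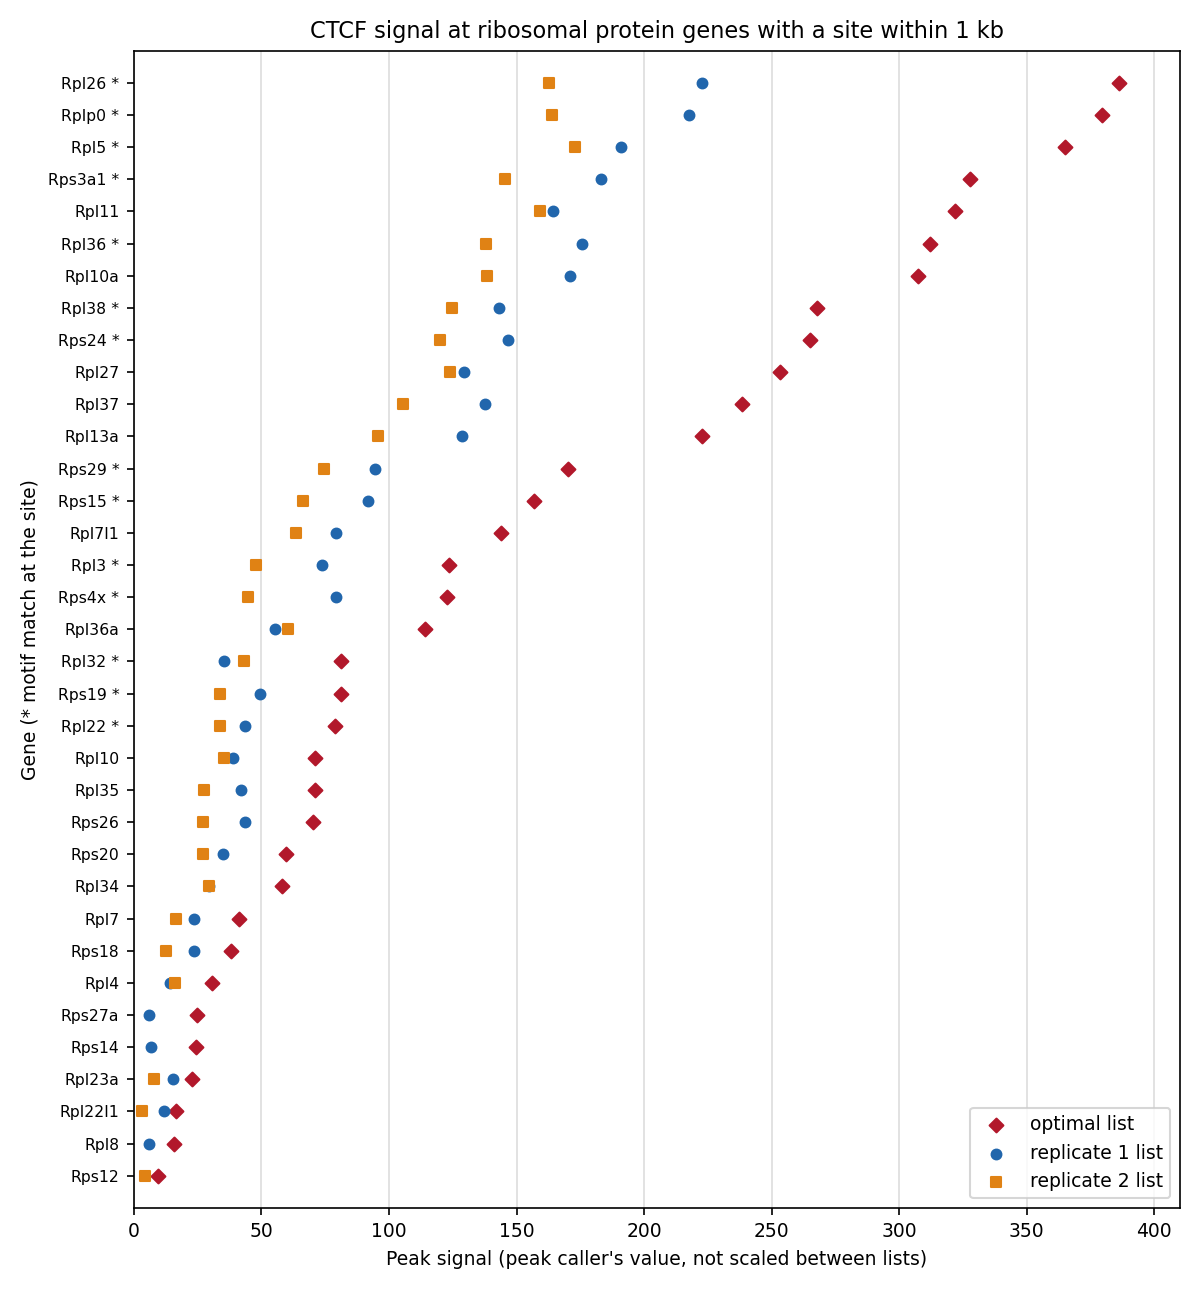
Peak signal of the strongest CTCF site within 1 kb at 35 of the 39 ribosomal protein genes that have one, in the optimal list (red diamonds), replicate 1 (blue circles) and replicate 2 (orange squares), ordered by the optimal value; an asterisk marks a motif match. The order runs from Rpl26 (386.2) to Rps12 (9.61), and replicate 1 lies above replicate 2 at 28 of the 31 drawn sites listed in both.

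The optimal list keeps peaks that rank alike in the replicates, so the likeness of these sites between replicates was in part selected for. Each replicate list holds 300000 peaks, against 54943 sites in the optimal list, so being listed in a replicate is a loose criterion. Of the 39 sites, 38 had a summit within 50 bp in the list of replicate 1, 36 in that of replicate 2, and 35 in both. Rpl22l1 counts as listed in replicate 2 with a peak at percentile 21.9 of that list. Over those 35 genes Spearman's rho between the replicate signals was 0.965 and Pearson's r of the log signals 0.956, as a description across genes that share both libraries and are not independent replicates; over all optimal sites listed in both, rho was 0.948. The signal in replicate 1 was higher at 31 of 35 sites (88.6%), against 80.8% of all optimal sites listed in both, with a median ratio of 1.27 to replicate 2, close to 1.23 over all sites. Among the sites higher in replicate 2 was that of Rpl32, with 35.4 in replicate 1 and 43.1 in replicate 2, and Rpl22l1 had the largest ratio between replicates, with 11.7 in replicate 1 and 3.05 in replicate 2. Rps27a, Rps14 and Rpl8 were absent from the list of replicate 2 and Rps12 from that of replicate 1. A promoter site was present in all 5 peak lists used at 34 of the 39 genes.

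The summits lay most often just before the annotated TSS. The median offset along the gene was -65 bp (order-statistic 95% interval -135 to -27). For other genes with a site it was -37 bp, which is inside that interval. Of the 39 summits 29 (74.4%) were upstream of the TSS, against 55.4% for other genes and 53.1% weighted for GC. In the 250 bp before the TSS lay 21 summits (53.8%, Wilson interval 38.6 to 68.4), against 31.2% (29.97 to 32.4) for other genes, whereas the first 250 bp after it held 3 (7.69%, 2.65 to 20.3), against 17.3%. The large subunit contributed 13 and the small subunit 8 of the summits in the upstream band. The remaining 10 summits were placed in introns (5 genes), in exons outside the coding sequence (4) and in a coding exon (Rpl8). Whether the share in the 250 bp before the TSS is particular to ribosomal protein genes was not tested, as related gene groups were not compared. Proteasome genes also had summits there, among them Psmd6 (-24 bp), Psmd1 (-56 bp), Psmd7 (-58 bp), Psmd8 (-114 bp) and Psmd11 (-140 bp). Other proteasome summits lay outside it, such as those of Psma1 (-549 bp), Psmc5 (209 bp) and Psmb5 (665 bp).

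Strength went with position. Sites in the 250 bp upstream had a median signal of 212.6 at ribosomal protein genes and 76.9 at other genes; sites elsewhere within 1 kb had 79.9 and 48.6. Of the 12 strongest ribosomal protein sites, 10 were in this band, and the 10 sites downstream of the TSS had a median of 39.6. For 34 of the 39 sites the nearest start in the annotation was the ribosomal protein gene's own. The exceptions were Rps3a1, Rps29, Rpl3, Rps18 and Rps27a, whose summits were nearer to Gm37933, Gm47295, Syngr1, Vps52 and Clhc1. At the edge of the window, Rpl34 (+844 bp) was just inside 1 kb, and Rps2 (+1053 bp, signal 24.7) and Rpl7a (-1170 bp, 39.2) just outside.

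**Figure D4:**
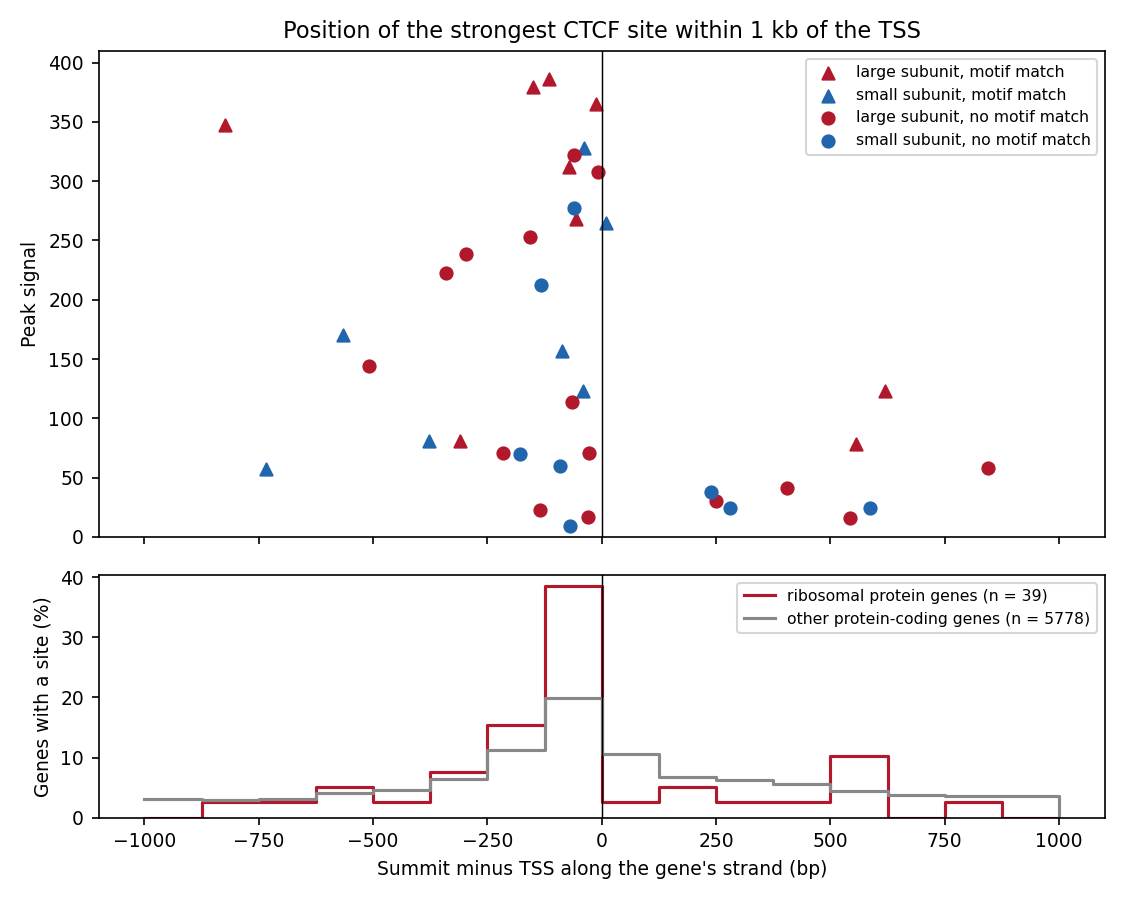
Top, peak signal against distance of the summit from the TSS along the gene for the strongest promoter site of 39 ribosomal protein genes (red, large subunit; blue, small subunit; triangles, motif match; circles, none). Bottom, share of genes per bin of distance for the same genes (red) and 5778 other genes with a site (grey): 21 of the 39 summits fall in the 250 bp before the TSS.

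A motif match was found at 16 of the 39 sites (41.0%, Wilson interval 27.1 to 56.6), against 25.5% of other genes' promoter sites and 25.6% of all promoter sites. Strong sites carried the motif more often in all genes, and when other genes were weighted to the signal of the ribosomal protein sites in 10 bands their share was 37.9%, so at equal signal the share differed by less than counting error. Above the median signal of all sites 15 of 27 ribosomal protein sites had a match (55.6%, against 42.7% for other genes), and below it 1 of 12 (8.33%, against 10.7%). No match was found in 78 windows moved by 1 kb from these summits. At other genes 0.727% of such windows had one, and 78 windows are too few to tell these shares apart.

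The motif lay on the same strand as the gene in 12 of 16 cases (75%, 50.5 to 89.8), against 59.4% (56.9 to 61.9) of other genes' matches. Rps24 and Rpl22 were among the exceptions. All 8 matches at summits in the 250 bp upstream band were on the gene's strand: those of Rpl26, Rplp0, Rpl5, Rps3a1, Rpl36 and Rpl38 printed above, and those of Rps15 and Rps4x. The strand was not compared with other genes' matches in this band, so this describes 8 sites only. Over all positions, the 59.4% of other genes lay inside the interval of the ribosomal protein genes. A score passed by 0.1% of moved windows left no match among the 39 sites and left 2.32% of other genes' sites with one, so the share with a motif rests on the threshold.

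Of the 47 genes with no summit within 1 kb, 20 (42.6%, 29.5 to 56.7) had one within 5 kb, against 24.8% of other genes with none within 1 kb. Over all 47 the median distance to the nearest summit was 5498 bp, against 13584 bp for those other genes. Neither comparison was weighted for base composition. The 47 genes had a median GC of 56.6% and a CpG ratio of 0.783, against 52.5% and 0.391 in those other genes. In those 20 genes the strongest site within 5 kb was upstream in 11 and downstream in 9, with a median signal of 89.0 (24.7 to 364.0) and a motif match at 12. The strongest of these were at Rpl3l, a paralogue expressed in heart and skeletal muscle (364.0, 3316 bp upstream), Rps28 (300.4, 2497 bp upstream), Rpl19 (249.3, 4947 bp downstream) and Rpl7a (215.6, 3474 bp upstream). The others were Rpl41, Rpl28, Rpl13, Rps13, Rplp2, Rpl24, Rpl6, Rpl14, Rplp1, Rps27rt, Rps10, Rps16, Rpl18, Rpl12, Rps7 and Rps2.

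The remaining 27 genes had none within 5 kb in the optimal list. They included Rpl9, Rpl10l, Rpl15, Rpl17, Rpl21, Rpl23, Rpl27a, Rpl29, Rpl30, Rpl31, Rpl35a, Rpl36al, Rpl37a, Rpl39, Rpl39l, Rps3, Rps6, Rps9, Rps15a, Rps21, Rps23, Rps25, Rps27, Rps27l, Rpsa and Fau. In other lists some of them had a summit within 1 kb: Rpl39 and Rps15a in the conservative list, and, in the pooled or a single-replicate list cut to the size of the optimal one, Rpl15, Rpl29, Rpl30, Rps9, Rps15a and Rpsa. Among these genes Rps6, the substrate of the S6 kinases, had its nearest summit 17042 bp upstream (28.0) and Rpsa, which is also known as the laminin receptor, 13148 bp downstream (307.7). Every ribosomal protein gene had at least 1 summit within 50 kb, with a median of 6, whereas 15.5% of other genes had none and their median was 4. The median distance to the nearest summit was 1572.5 bp, against 6751 bp for other genes. These counts and distances were not weighted for GC or CpG ratio.

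The shares with a CTCF site did not differ beyond counting error between genes with and without a small nucleolar RNA or a divergent start. A promoter site was present in 13 of 30 genes with a small nucleolar RNA inside (43.3%, 27.4 to 60.8) and in 26 of 56 without (46.4%, 34.02 to 59.3). It was present in 6 of 15 genes with a divergent start within 1 kb (40.0%, 19.8 to 64.3) and in 33 of 71 without (46.5%, 35.4 to 58.0). Among other genes those shares were 37.5% and 25.2%. The interval for 15 genes is too wide to tell whether ribosomal protein genes lack such a gap. A run of at least 8 pyrimidines overlapping the 10 bases either side of the TSS was found in 26 of 86 ribosomal protein genes (30.2%), against 13.9% of other genes; it was present in 16 of the 39 genes with a CTCF site (41.0%, 27.1 to 56.6) and in 10 of the 47 without (21.3%, 11.99 to 34.9).

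Short words of other promoter factors were also counted from 250 bases before to 50 after the TSS, on both strands. The ETS core CCGGAAG was found in 23 ribosomal protein promoters (26.7%), against 10.7% of all protein-coding promoters, and the YY1 core AAGATGG in 12 (14.0%), against 6.21%. TATAAA was found in 9 (10.5%), against 12.6%. These shares were not weighted for GC or CpG ratio. The ETS core was about as frequent in the promoters with a CTCF site (11 of 39, 28.2%) as in those without (12 of 47, 25.5%). The YY1 core was in 4 of 39 (10.3%, Wilson interval 4.06 to 23.6) and 8 of 47 (17.0%, 8.89 to 30.1). TATAAA was in 6 of 39 (15.4%, 7.25 to 29.7) and 3 of 47 (6.38%, 2.19 to 17.2), with overlapping intervals for both words.

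Related gene groups had shares below that of the ribosomal protein genes, within counting error. A promoter site was present in 27 of 78 genes for mitochondrial ribosomal proteins (34.6%, 25.01 to 45.7), in 15 of 39 for proteasome subunits (38.5%, 24.9 to 54.1), in 19 of 50 for ribosome biogenesis factors (38.0%, 25.9 to 51.8) and in 9 of 25 for translation factors and other products of pyrimidine-start mRNAs (36.0%, 20.2 to 55.5). All these intervals overlapped that of the ribosomal protein genes and also held the 26.5% of other genes, and these groups were not weighted for GC. Annotated ribosomal protein pseudogenes, mostly copies made from messenger RNA without the promoter, had a site in 11 of 300 cases (3.67%, 2.06 to 6.45).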

How the data were processed

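CTCF ChIP-seq of 2 samples in 1 group was deposited as 5 peak lists on mm10, named optimal and conservative IDR thresholded lists, 1 list for the series and 1 per replicate. The signal and the summit of each peak are the authors' deposited values; the peak caller, its thresholds and its control are not stated in any source used here. Sequence was read from GRCm38.p6, whose chromosomes hold every deposited peak on 1 to 19, X and Y within their lengths, and gene starts were those of GENCODE M21.

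Summits were assigned to the annotated 5′ end of each protein-coding gene within 1 kb and 5 kb, keeping the strongest. Shares carry 95% Wilson intervals, which cover counting error over genes only. Other genes were weighted to the members' GC content in 20 bins. The CTCF motif was learned from these peaks. No test between conditions was possible with 1 group, and no p-value is given. The genes and lists were chosen with earlier results of these data known. Genes with a site are named, those in the top 10% of signal with each replicate's value; some genes count in every total but are not reported here by name. Methods were tested on simulated data. Python 3 with numpy was used.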

Additional observations from a re-analysis of the deposited data

How the results depend on the processing

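The share of ribosomal protein genes with a site within 1 kb stayed inside its Wilson interval under 10 of 11 alternatives (37.2% to 53.5%) and within 5 kb under 8 of 9 (64.0% to 73.3%); the exception in both was the list of the strongest 10000 sites, with 17.4% and 24.4%, which by construction holds fewer sites. The difference from other genes was positive under all 17 alternatives. It was 7.71 to 16.6 points where other genes were weighted for composition and 18.8 points without weighting. Under both CpG weightings at 1 kb (7.83 and 8.88 points) the weighted share of other genes was inside the interval of the ribosomal protein genes. It was also inside that interval with all transcript starts (7.71). The median offset stayed between -80 and -62.5 bp. The median signal percentile ran from 57.6 to 72.6, but it was taken within each list. The 72.6 is a percentile among the strongest 10000 sites only and is not on the scale of the main value. The share with a motif was 0% at the score passed by 0.1% of moved windows, 97.4% for the word CCANNAGNNGGC with at most 2 mismatches, which 53.3% of moved windows also pass, and 15.4% for that word with no mismatch, tried only once the data had been seen, against 13.4% of other genes' sites. Each replicate list alone, cut to the number of optimal sites, gave 47.7% at 1 kb and 70.9% at 5 kb, and shared 37 and 36 genes with the 39. Counting Rps19bp1 as a member gave 44.8%. No paired analysis was possible because there is 1 group of 2 samples.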

Other observations

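Among ribosome biogenesis genes the strongest promoter sites were at Rrp1 (signal 497.8, 68 bp upstream), above every ribosomal protein gene, and at Nob1 (408.0, 91 bp upstream), which codes for the nuclease that finishes the small-subunit RNA. Nop10 (255.9) and Rrs1 (251.8) had summits 65 and 64 bp upstream, and all but Rrp1 of these 4 had a motif match. Among mitochondrial ribosomal protein genes Mrpl34 (350.2, 173 bp upstream) and Mrps33 (341.5, 36 bp upstream) led, both with a motif match. The pseudogene Rpl5-ps2 had a site of 409.4 at an offset of -746 bp, above the 365.0 at Rpl5 itself, and Rpl34-ps1 one of 249.6, against 58.1 at Rpl34. These genes were singled out after their values were seen.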
